A study of Mus musculus with 16 samples.

Results

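The PGC1a coactivators and the regulators of mitochondrial biogenesis that work with them were followed in demyelinated lesions of the mouse spinal cord. The 10 genes were taken by symbol from the table of 46078 Ensembl mouse genes: Ppargc1a, Ppargc1b, Pprc1, Esrra, Nrf1, Gabpa, Tfam, Tfb1m, Tfb2m and Sirt1. All 10 were among the 15096 genes that passed the filter on low counts. RNA was sequenced from lesions cut out by laser microdissection after injection of lysolecithin, a lipid that strips myelin from axons. There were 4 groups of 4 libraries: exercise at day 10, control at day 10, exercise at day 5 and control at day 5. All mice were of the C57BL/6 strain, 8 to 12 weeks old, and all received lysolecithin. The labels name no other allele or agent. Exercised mice could use a running wheel freely, and controls were kept with a locked one. The labels do not say whether the days count from the injection or from the start of running, nor that each library came from a separate animal. The p-values therefore compare groups with the spread among libraries, which may be technical. The series title names PGC1a in oligodendroglia, but the dissected tissue holds every cell type of the lesion. In such bulk samples, fewer cells of a type and less RNA per cell cannot be told apart.

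PGC1a, the protein of Ppargc1a, is a transcriptional coactivator: it binds no DNA itself but is brought to promoters by transcription factors, among them ERRa (Esrra) and the nuclear respiratory factors NRF1 and GABP. These factors act on nuclear genes for the respiratory chain and on Tfam, Tfb1m and Tfb2m, whose proteins enter mitochondria and copy, transcribe or modify the products of mitochondrial DNA. In skeletal muscle, Ppargc1a is a classic gene induced by endurance exercise, and its protein is activated there by the kinase AMPK and the deacetylase SIRT1.

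Ppargc1a was the only one of the 10 genes that passed the threshold in any comparison. In control lesions it was 2.31-fold higher at day 10 than at day 5, where 12.3% of all genes were called. In exercised lesions its means at the 2 days were close and lay between those of the 2 control groups. No member passed between exercised and control lesions at either day, where 0.192% of all genes were called at day 10 and 0% at day 5. For the other 9 genes, the highest group mean was 1.06 times (Tfb2m) to 1.49 times (Ppargc1b) the lowest, and no comparison passed.

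The promoter of Ppargc1a is shown because it was the member that changed, that of Tfam because it is the textbook downstream gene of NRF1 and GABP, and that of Gabpa because it held the most motif matches. All are from RefSeq on GRCm38.p6, and each runs from 250 bases before to 50 bases after the annotated start, 5′ to 3′ on the gene's strand. The Ppargc1a window lies on the minus strand at chr5:51567676-51567975, the Tfam window on the minus strand at chr10:71237995-71238294, and the Gabpa window on the plus strand at chr16:84834874-84835173. Capitals mark a match to one of the motifs searched.
Ppargc1a: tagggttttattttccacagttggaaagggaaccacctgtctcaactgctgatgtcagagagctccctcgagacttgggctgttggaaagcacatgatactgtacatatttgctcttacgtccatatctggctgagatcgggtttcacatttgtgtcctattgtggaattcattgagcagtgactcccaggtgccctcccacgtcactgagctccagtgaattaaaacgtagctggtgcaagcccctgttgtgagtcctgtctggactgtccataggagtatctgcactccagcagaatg
Tfam: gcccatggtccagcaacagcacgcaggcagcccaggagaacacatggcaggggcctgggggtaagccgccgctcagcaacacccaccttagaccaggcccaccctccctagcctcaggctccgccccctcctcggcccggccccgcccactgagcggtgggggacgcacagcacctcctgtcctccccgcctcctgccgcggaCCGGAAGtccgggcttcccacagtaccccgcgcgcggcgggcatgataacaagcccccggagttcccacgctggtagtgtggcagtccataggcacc
Gabpa: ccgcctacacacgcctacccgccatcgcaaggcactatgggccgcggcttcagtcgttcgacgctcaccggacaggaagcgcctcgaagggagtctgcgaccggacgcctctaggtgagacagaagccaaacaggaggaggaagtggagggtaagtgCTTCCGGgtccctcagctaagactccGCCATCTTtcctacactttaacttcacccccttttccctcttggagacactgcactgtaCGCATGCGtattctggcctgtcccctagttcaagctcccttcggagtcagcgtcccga
The motifs searched on both strands were the cAMP response element TGACGTCA, the NRF1 core CGCATGCG, the ETS core CCGGAAG (the family of Gabpa), the ERR half-site AAGGTCA and the YY1 core AAGATGGC. Windows were searched for 9 of the 10 genes, all but Ppargc1b. The ETS core stood in 2 of the 9, at position -47 from the start of Tfam and at position -93 of Gabpa on the other strand. The NRF1 core also stood in 2, at position -8 of Gabpa and at position 13 of Tfb2m. Gabpa held the YY1 core at position -67, on the other strand. No motif overlapped another. Of 32851 RefSeq promoter windows of the same length, 8.86% held the ETS core, 2.75% the YY1 core, 4.72% the ERR half-site, 1.79% the cAMP element and 1.87% the NRF1 core. The Ppargc1a window held none of these exact strings, which says only that those letters are not in this window.

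Levels are given as CPM, the read count scaled to the effective library size, which was adjusted by TMM. Comparison between genes used CPM per kilobase of exon. On that scale Gabpa stood highest at 16.9 ± 2.37 CPM per kilobase (SD over 16 libraries). Esrra followed at 10.9 ± 2.30, Tfb1m at 7.79 ± 1.22 and Tfam at 4.70 ± 0.716 CPM per kilobase. Pprc1 had 2.77 ± 0.348, Sirt1 2.57 ± 0.423 and Tfb2m 2.55 ± 0.457 CPM per kilobase. Ppargc1b had 1.67 ± 0.602, Nrf1 1.39 ± 0.287 and Ppargc1a 1.07 ± 0.416 CPM per kilobase. Esrra, Tfb1m and Tfam were each above the next gene in 16 of 16 libraries, and Gabpa and Tfb2m each in 15. Pprc1 and Nrf1 were each above the next in 12 of 16 libraries. Sirt1 was above Tfb2m, and Ppargc1b above Nrf1, in 10 of 16, so these neighbours were not separated beyond their spread. Over all 16 libraries the gene named in the series title was thus the lowest of the 10 per length, but not in every group. In control at day 10, Ppargc1a had 1.52 and Nrf1 1.15 CPM per kilobase, and Ppargc1a was the higher of the 2 in 3 of 4 libraries. The mean log2 CPM of Ppargc1a exceeded that of 33.7% of the genes tested.

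**Figure D1:**
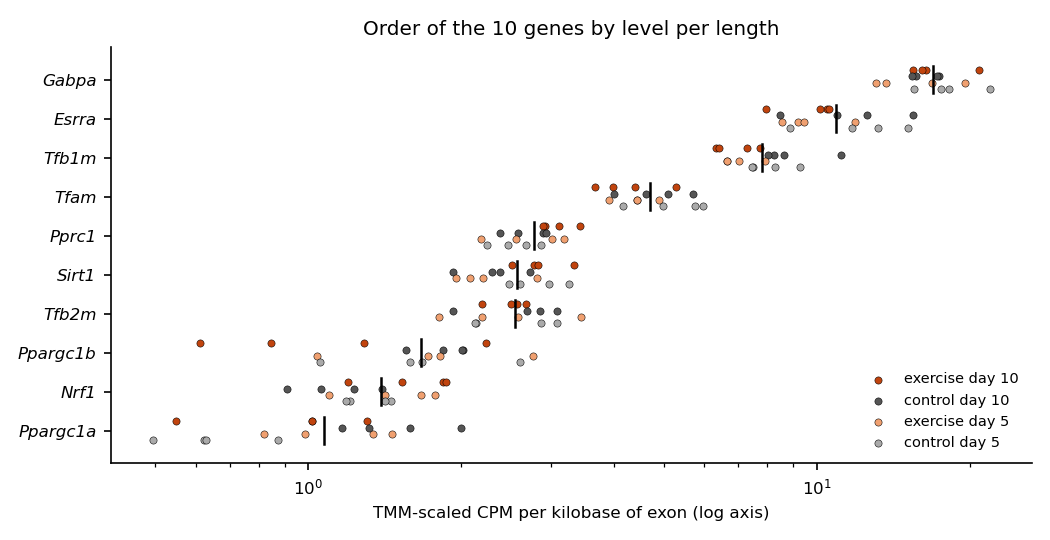
Level per length of the 10 genes. Each point is 1 library, in TMM-scaled CPM per kilobase of exon on a log axis, with groups in 4 rows per gene and a bar at the mean over 16 libraries; Gabpa, at 16.9 CPM per kilobase, has the highest mean over all libraries and Ppargc1a, at 1.07, the lowest, while in control at day 10 Ppargc1a (1.52) is above Nrf1 (1.15).

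The genes also differed in how much they varied. The SD of log2 CPM over the 16 libraries was 0.57 for Ppargc1a and 0.57 for Ppargc1b, against 0.18 (Pprc1) to 0.30 (Nrf1) for the other 8. For Ppargc1a, the coefficient of variation within a group was 24.1% to 32.3%, and counting error alone gives 9.38% to 13.9%. For Ppargc1b it was 57.7% in exercise at day 10, where counting error gives 15.1%. For Tfb1m it was 9.69% in exercise at day 10 and 8.40% in exercise at day 5, no larger than its counting error of 10.2% and 10.4%. In control it was 16.1% at day 10 and 10.6% at day 5, above the counting error of 8.49% and 8.70%.

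The coactivators come first. Ppargc1a (ENSMUSG00000029167) lies on the minus strand of GRCm38 chromosome 5, from 51454250 to 51567726, with 6592 exonic bases that overlap no other gene. It had 6.71, 3.61, 8.60 and 6.70 CPM in exercise at day 10, against 7.67, 10.5, 8.66 and 13.2 CPM in control at day 10. It had 6.50, 9.63, 5.40 and 8.84 CPM in exercise at day 5, against 3.26, 5.75, 4.10 and 4.14 CPM in control at day 5. The lowest exercise value at day 10 was replicate 17, and the highest control value was replicate 5. The exercise and control values overlapped at each day. These values rest on few reads: 37 to 161 counts per library.

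Between days in control lesions, Ppargc1a averaged 9.99 ± 2.42 CPM at day 10 and 4.31 ± 1.04 CPM at day 5 (SD, n = 4 each). All 4 day 10 libraries lay above all 4 day 5 libraries. The log2 difference was 1.21 (SE 0.28, 95% interval 0.63 to 1.79), with an adjusted p of 0.00783 by edgeR's quasi-likelihood test with Benjamini-Hochberg adjustment over 15096 genes. It was thus 1 member called out of 10, where 12.3% of all genes were called in either direction, 5.66% were called higher and 20% had groups that did not overlap. Leaving out each of the 16 libraries in turn left it called, with log2 differences of 1.04 to 1.38 and edgeR adjusted p-values of 0.00296 to 0.0325. In exercised lesions it averaged 6.40 ± 2.07 CPM at day 10 and 7.59 ± 1.97 CPM at day 5 (SD, n = 4 each). The log2 difference was -0.24 (SE 0.28, 95% interval -0.82 to 0.34, edgeR adjusted p 0.637).

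Between exercise and control, the direction of the Ppargc1a difference was opposite at the 2 days, and neither passed. At day 10 the log2 difference was -0.64 (SE 0.27, 95% interval -1.21 to -0.07, edgeR p 0.0309, adjusted p 0.339). Without exercise replicate 17 it was -0.44 (adjusted p 0.575). At day 5 it was 0.81 (SE 0.28, 95% interval 0.22 to 1.40, edgeR p 0.00942, adjusted p 0.37). The difference between the 2 exercise effects, day 10 minus day 5, was tested as an interaction. It was -1.45 (SE 0.39, 95% interval -2.27 to -0.63) and ranked 56th of 15096 genes, with an edgeR p of 0.00157 and an adjusted p of 0.422. No gene passed the interaction test by edgeR (0% called), while 1376 had an unadjusted p under 0.05 and DESeq2 called 9, Ppargc1a not among them (DESeq2 adjusted p 0.109). The authors' deposited table gives Ppargc1a log2 differences of -0.45 (SE 0.28, adjusted p 0.622) at day 10 and 0.81 (SE 0.29, adjusted p 0.103) at day 5. That day 10 table rests on 7 libraries and leaves out exercise replicate 17.

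**Figure D2:**
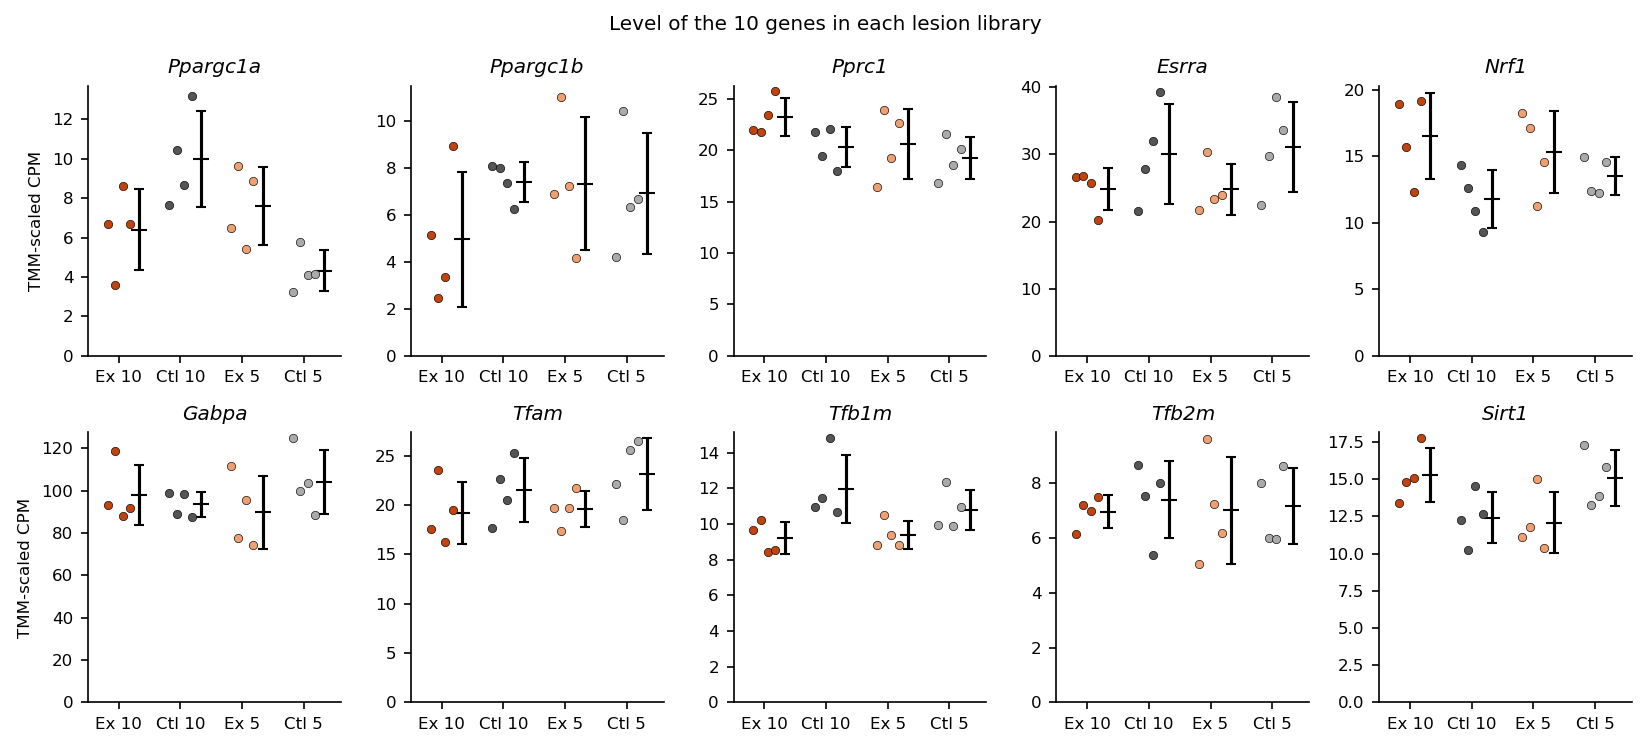
Level of each of the 10 genes in TMM-scaled CPM, by group (Ex, exercise; Ctl, control; 10 and 5, the day). Points are libraries, and the bars show mean and SD of 4 libraries; the 4 control day 10 points of Ppargc1a, 7.67 to 13.2 CPM, are all above the 4 control day 5 points, 3.26 to 5.75 CPM.

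Ppargc1b, which encodes the close relative PGC1b, lies on chromosome 18. It had 5.12, 2.44, 3.37 and 8.93 CPM in exercise at day 10, against 8.05, 8.00, 7.35 and 6.22 CPM in control at day 10. In exercise at day 10, 3 of 4 libraries lay below every control library and replicate 19 above them all. The log2 difference was -0.58 (SE 0.36, 95% interval -1.34 to 0.18, edgeR adjusted p 0.522). It was -1.02 without exercise replicate 19 and -0.36 without exercise replicate 17, and over all libraries left out the edgeR adjusted p was 0.328 to 0.771. The day 5 libraries held 6.86, 11.02, 7.23 and 4.14 CPM in exercise, against 4.21, 10.4, 6.33 and 6.69 CPM in control. Those groups overlapped almost fully, at a log2 difference of 0.07 (SE 0.36). Between days its edgeR adjusted p was 0.365 in exercise and 0.89 in control.

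Pprc1 encodes PRC, the third member of the coactivator family, known as an early growth-responsive one. It lies on chromosome 19 of GRCm38, from 46044886 to 46072915. It had 21.98, 21.8, 23.4 and 25.8 CPM in exercise at day 10, against 21.7, 19.5, 22.1 and 17.9 CPM in control at day 10. Day 5 values were 16.4, 23.9, 19.3 and 22.7 CPM in exercise, against 16.9, 21.6, 18.5 and 20.1 CPM in control. It was the steadiest of the 10, with every library between 16.4 and 25.8 CPM. No comparison passed: the smallest edgeR adjusted p was 0.471, for day 10 against day 5 in exercise (log2 0.18, SE 0.14).

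Of the DNA-binding factors, Esrra encodes ERRa, an orphan nuclear receptor that PGC1a coactivates, on chromosome 19 from 6910977 to 6921813. It had 26.6, 26.8, 25.8 and 20.2 CPM in exercise at day 10, against 21.5, 27.8, 31.9 and 39.2 CPM in control at day 10. On day 5 Esrra had 21.7, 30.3, 23.3 and 23.9 CPM in exercise, against 22.5, 29.7, 38.5 and 33.6 CPM in control. The means were lower with exercise at both days and the groups overlapped, with log2 differences of -0.27 (SE 0.19, edgeR adjusted p 0.568) at day 10 and -0.33 (SE 0.19, edgeR adjusted p 0.57) at day 5. Of its exonic bases, 91 are shared with the microRNA gene Mir6990 on the same strand.

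Nrf1, on chromosome 6 from 30047988 to 30153458, encodes nuclear respiratory factor 1. It had 18.9, 15.7, 12.3 and 19.2 CPM in exercise at day 10, against 14.4, 12.6, 10.9 and 9.33 CPM in control at day 10. In 3 of 4 exercise libraries it was above every control library. The log2 difference was 0.48 (SE 0.19, 95% interval 0.08 to 0.88, edgeR p 0.0201, adjusted p 0.304) and did not pass. The authors' deposited table gives 0.50 with an adjusted p of 0.481. On day 5 Nrf1 had 18.2, 17.1, 11.3 and 14.5 CPM in exercise, against 14.9, 12.4, 12.2 and 14.5 CPM in control, with groups that overlapped (log2 0.18, SE 0.19).

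Gabpa, on chromosome 16 from 84834925 to 84863779, encodes the DNA-binding subunit of GABP, also called nuclear respiratory factor 2. It had 93.2, 119, 87.9 and 91.6 CPM in exercise at day 10, against 99.1, 89.1, 98.3 and 87.5 CPM in control at day 10. The day 5 values of Gabpa were 111, 77.8, 95.8 and 74.3 CPM in exercise, against 125, 99.8, 103 and 88.5 CPM in control. The groups overlapped at both days, with log2 differences of 0.07 (SE 0.14) and -0.21 (SE 0.14). It shares exonic bases with Atp5j, a subunit of ATP synthase on the opposite strand, as Pprc1 does with Ldb1, Esrra with Trmt112, Tfb1m with Tiam2 and Sirt1 with Gm16145. The counts were made by strand, per the file headers.

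Of the mitochondrial DNA factors, Tfam, on chromosome 10 from 71225464 to 71238280, packages mitochondrial DNA and starts its transcription. It had 17.6, 23.5, 16.2 and 19.5 CPM in exercise at day 10, against 17.7, 22.6, 20.5 and 25.3 CPM in control at day 10. Day 5 values of Tfam were 19.7, 17.4, 19.7 and 21.7 CPM in exercise, against 22.1, 18.5, 25.6 and 26.5 CPM in control. Its log2 differences were -0.16 (SE 0.16) at day 10 and -0.24 (SE 0.16) at day 5, with groups that overlapped and edgeR adjusted p-values of 0.704 and 0.633.

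Tfb1m, on chromosome 17 from 3519263 to 3557713, encodes a methyltransferase that modifies the small mitochondrial ribosomal RNA. It had 9.69, 10.2, 8.42 and 8.52 CPM in exercise at day 10, against 10.9, 11.5, 14.8 and 10.6 CPM in control at day 10. Every exercise library lay below every control library, which was so in one or the other direction for 5.88% of all genes. The log2 difference was -0.37 (SE 0.16, 95% interval -0.71 to -0.03, edgeR p 0.033, adjusted p 0.346) and did not pass. The authors' deposited table gives -0.44 with an adjusted p of 0.519. On day 5 Tfb1m had 8.85, 10.5, 9.35 and 8.84 CPM in exercise, against 9.94, 12.3, 9.89 and 10.98 CPM in control, at a log2 difference of -0.20 (SE 0.16).

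Tfb2m, on chromosome 1 from 179528055 to 179546267, encodes the transcription factor that opens the mitochondrial promoter for the polymerase. It had 6.15, 7.22, 7.01 and 7.51 CPM in exercise at day 10, against 8.66, 7.54, 5.40 and 8.02 CPM in control at day 10. Tfb2m had 5.06, 9.63, 7.23 and 6.17 CPM in exercise at day 5, against 8.03, 6.00, 5.97 and 8.65 CPM in control at day 5. Its groups overlapped in all 4 comparisons of groups, and its log2 differences lay between -0.09 and 0.05 with SEs of 0.22 to 0.23.

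Sirt1, on chromosome 10 from 63319005 to 63381704, encodes the NAD-dependent deacetylase that acts on PGC1a. It had 13.4, 14.8, 15.1 and 17.8 CPM in exercise at day 10, against 12.2, 10.3, 14.5 and 12.7 CPM in control at day 10. Day 5 values of Sirt1 were 11.1, 11.8, 15.04 and 10.4 CPM in exercise, against 17.3, 13.2, 13.9 and 15.8 CPM in control. The groups overlapped at both days, with log2 differences of 0.30 (SE 0.16, edgeR adjusted p 0.462) and -0.32 (SE 0.16, edgeR adjusted p 0.529). The interaction was 0.62 (SE 0.23, 95% interval 0.13 to 1.11, edgeR p 0.0162, adjusted p 0.504) and did not pass. Its sign was the reverse of that of Ppargc1a, with exercise above control at day 10 and below it at day 5.

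**Figure D3:**
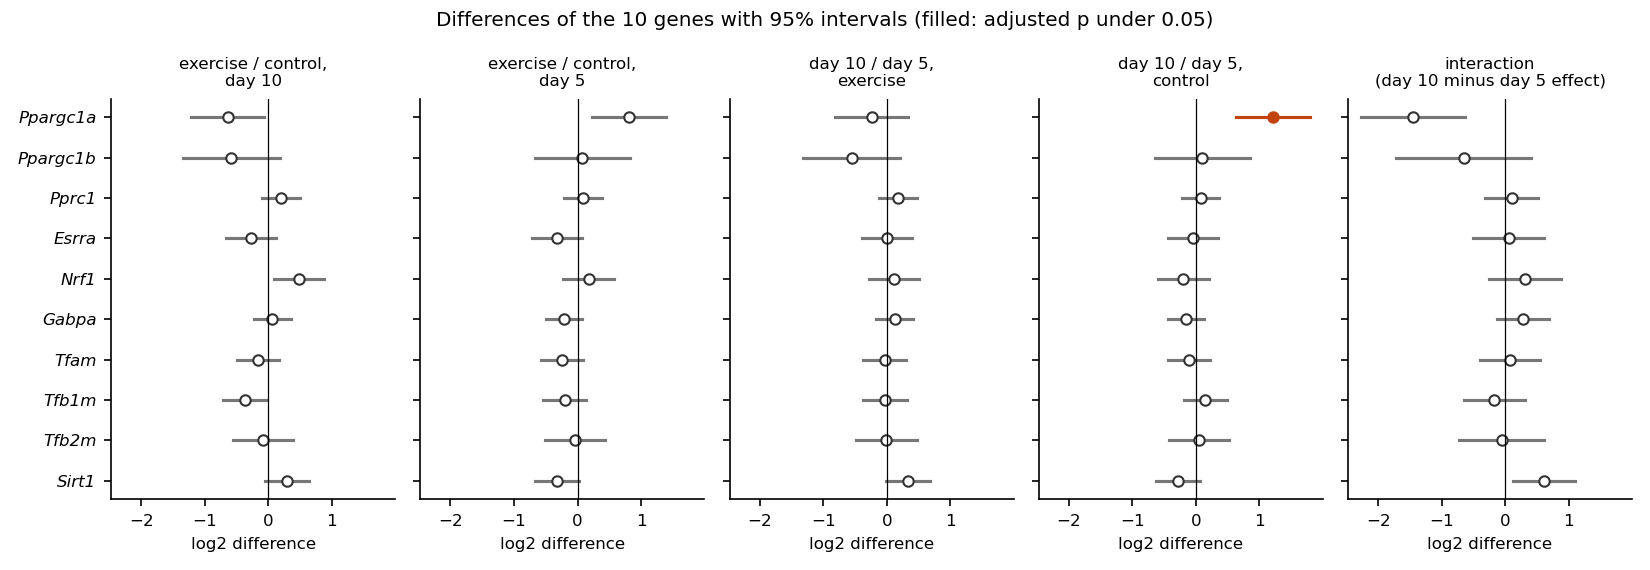
Log2 differences of the 10 genes with 95% intervals in the 5 comparisons, numerator first. Filled symbols have an edgeR adjusted p under 0.05; the one filled symbol is Ppargc1a for day 10 against day 5 in control, at 1.21.

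Counted over the members, exercise against control at day 10 gave 0 of 10 called by edgeR, where 0.192% of all genes were called. At an unadjusted p under 0.05 there were 3 (Ppargc1a, Nrf1 and Tfb1m), against 12.8% of all genes, and DESeq2 called 0. At day 5 edgeR called 0 of 10 members and 0% of all genes; 1 member (Ppargc1a) had an unadjusted p under 0.05, against 10% of all genes, and DESeq2 called 0, giving Ppargc1a no adjusted p. No member had groups that did not overlap at day 5, against 7.29% of all genes. For day 10 against day 5 in exercise, edgeR called 0 members where 10.1% of all genes were called, and DESeq2 called 0. At an unadjusted p under 0.05 there were 0 members, against 25.8% of all genes. In control the unadjusted count was 1 of 10 (Ppargc1a), against 26.9% of all genes. Between days in exercise, no member's groups were free of overlap, against 14.1% of all genes. In the interaction 0 members were called by either tool, and 2 (Ppargc1a and Sirt1) had an unadjusted p under 0.05, against 9.11% of all genes. Each comparison at a given day shares a group of libraries with each comparison within a treatment, and the interaction uses all 4 groups. Those results are therefore not independent.

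By the root-mean-square difference of log2 CPM, centred over the 16 libraries, the 8 tested genes with a pattern most like Ppargc1a were Kcna2 (0.280), Faah (0.293), Slc35g2 (0.305), Dyrk1b (0.306), Spock2 (0.311), Ppfibp2 (0.311), Sparcl1 (0.324) and Tmem47 (0.324). The median over all tested genes was 0.651. Kcna2, the nearest, averaged 34.1 CPM in exercise at day 10, 45.9 in control at day 10, 36.7 in exercise at day 5 and 22.4 CPM in control at day 5. Spock2 averaged 26.0, 38.4, 33.9 and 21.6 CPM in the same order of groups. These genes were chosen for their likeness over the same libraries, so their values are a description. Among the other members the nearest was Pprc1 (0.529), ranked 2037th, and the farthest Sirt1 (0.708), ranked 9797th.

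Respiratory chain genes encoded in the nucleus are the best-known output of this pathway, and those that passed between the days were all lower at day 10, in both treatments. In exercised lesions 12 of 44 were called lower at day 10 than at day 5 and 0 higher, where 4.9% of all genes were called lower and 5.17% higher. Of the 44 log2 differences 43 were negative, with a median of -0.37, against 0.006 over all tested genes. The 5 with the smallest p were Atp5g3 (-0.55) and Atp5b (-0.39), subunits of ATP synthase, Cyc1 (-0.54) of complex III, and Cox5b (-0.53) and Cox7a2 (-0.54) of complex IV. Atp5g3 averaged 73.2 ± 6.03 CPM in exercise at day 10 and 107 ± 7.59 CPM in exercise at day 5 (SD, n = 4 each). In control lesions 5 of 44 were called lower and 0 higher, where 6.64% of all genes were called lower. Of the 44, 37 were negative and the median was -0.17, against 0.011 over all tested genes. Those 5 were Cyc1 (-0.46), Atp5g3 (-0.40), Cox7a2 (-0.47), Atp5b (-0.31) and Uqcrq (-0.64), the last a subunit of complex III. Cyc1 averaged 38.6 ± 2.79 CPM in control at day 10 and 53.2 ± 4.02 CPM in control at day 5 (SD, n = 4 each). The exercise count was 7 to 16 with libraries left out, and 7 without exercise replicate 19 at day 10. In the other settings it was 4 to 17, and 4 in a fit of the 2 exercise groups alone. The control count was 1 without control replicate 2 at day 10, and 3 without control replicate 1 or without control replicate 6 at day 5. In the settings that left out no library of the comparison, the control count was 0 to 6. It was 0 under the replicate block described below, where a difference rests only on libraries that share a number. In exercised lesions 6 of 19 neuronal, 4 of 8 macrophage and 3 of 8 endothelial markers were also called lower at day 10 than at day 5, and in control lesions 4 of 19 neuronal and 5 of 8 macrophage markers were. Their part in the respiratory chain counts was not tested.

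Between exercise and control at day 10, 1 of the 44 was called lower, Cox6c of complex IV, where 0.0861% of all genes were called lower and 0.106% higher. Cox6c averaged 97.3 ± 9.60 CPM in exercise and 149.9 ± 23.9 CPM in control (SD, n = 4 each; log2 -0.62, SE 0.12, edgeR adjusted p 0.0424), and 37 of the 44 differences were negative, with a median of -0.11. Of the astrocyte markers 8 of 9 and of the endothelial markers 7 of 8 were negative there too, while 8 of 8 microglial markers were positive; their part was not tested. No gene of the list was called in a fit of the 2 day 10 groups alone, nor in 13 of the 16 fits that left out 1 library: all but those without exercise replicate 18 at day 10, exercise replicate 2 at day 5 or control replicate 6 at day 5. At day 5 edgeR and DESeq2 called 0 of the 44, 7 had an unadjusted p under 0.05, and the median was 0.07. For this list and those below, 10% of all genes had an unadjusted p under 0.05 at day 5 and 12.8% at day 10. Between days the share was 25.8% in exercise and 26.9% in control, and in the interaction it was 9.11%.

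Of the 13 proteins encoded by mitochondrial DNA, 9 could be tested, and edgeR called none in any comparison with all libraries. mt-Nd3, mt-Nd4l, mt-Co3 and mt-Atp6 had at most 8, 0, 9 and 16 counts in any library. All 13 together held 0.281% to 0.417% of the counts of a library. Why these counts were so low was not tested, and they do not show that the genes were silent. At day 5 the list's median was 0.35, with 8 of 9 positive, led by mt-Nd5 (0.72, edgeR adjusted p 0.234) and mt-Atp8 (0.93, edgeR adjusted p 0.268). There 5 of the 9 had an unadjusted p under 0.05 and DESeq2 called 1. At day 10 the median was 0.03 and 1 had an unadjusted p under 0.05, with mt-Nd5 at 0.34 (edgeR adjusted p 0.352) and mt-Nd4 at -0.25 (edgeR adjusted p 0.514). Between days the median was -0.18 in exercise, where 2 had an unadjusted p under 0.05 and leaving out exercise replicate 13 at day 10 gave 2 calls. It was 0.19 in control, where 0 had. DESeq2 called 0 at day 10 and between days. The share of all counts in the mitochondrial ribosomal RNA mt-Rnr2 moved the same way at day 5: it was 10.9% to 12.9% in exercise and 8.05% to 10.3% in control. Sequencing depth separated those groups too, at 8.13 to 10.9 M counts in exercise and 11.2 to 13.9 M counts in control (M, mega). The part of either in the day 5 results was not tested.

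The genes upstream of PGC1a comprised AMPK subunits and other kinases, enzymes of acetylation, deacetylation and NAD supply, the factors Creb1, Atf2, Tfeb and Tfe3, and the CREB coactivators Crtc1, Crtc2 and Crtc3. Between days 2 of 23 were called in each treatment, where 10.1% of all genes were called in exercise and 12.3% in control. In exercised lesions 1 of 23 was called higher at day 10 than at day 5, Camkk2 (0.48), a kinase that activates AMPK, and 1 lower, Nampt (-0.46), which makes the NAD precursor that SIRT1 uses. In control lesions 0 were called higher and 2 lower, Nampt (-0.47) and Map2k3 (-0.52), a kinase of p38. These counts moved with the libraries and the test used. The exercise count of 2 was 5 by DESeq2, 3 without exercise replicate 13 at day 10, 0 without exercise replicate 1 or 7 at day 5, and 1 without exercise replicate 17 or 19 at day 10 or exercise replicate 2 or 12 at day 5. The control count of 2 was 0 without control replicate 4 at day 10 or control replicate 1 at day 5, and 1 without control replicate 2, 3 or 5 at day 10, exercise replicate 2 at day 5 or control replicate 2 or 5 at day 5. With exercise against control, edgeR called none at either day. At day 10, 5 of 23 had an unadjusted p under 0.05, led by the kinase Camk4 (-1.75, edgeR adjusted p 0.151) and Tfe3 (0.28, edgeR adjusted p 0.273), and DESeq2 called 1. At day 5, 1 had, Tfe3 (0.27, edgeR adjusted p 0.418); the next was Prkab1, an AMPK subunit (0.43, edgeR adjusted p 0.506).

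Among partners and corepressors of the transcription factors, calls were made between the days only. In exercised lesions 3 of the 22 tested were higher at day 10 than at day 5 and 0 lower: Mef2c (0.92), a factor that acts on the Ppargc1a promoter in muscle, Nrip1 (0.52), a corepressor that opposes PGC1a, and the forkhead factor Foxo3 (0.34). In control lesions 3 were higher, Mef2c (0.66), Nrip1 (0.46) and Foxo1 (0.68), and 1 lower, Yy1 (-0.32), a partner of PGC1a. Of all genes 5.17% were called higher and 4.9% lower in exercise, and 5.66% higher and 6.64% lower in control. Mef2c is also a gene of microglia in brain and cord, and 5 of 8 microglial markers were called higher in exercised lesions and 4 of 8 in control lesions. The part of microglial content in the Mef2c calls was not tested. The exercise count of 3 was 1 without exercise replicate 7 at day 5. The control count of 4 was 1 without control replicate 3 at day 10, and 2 without control replicate 5 at day 10 or control replicate 5 or 6 at day 5. Exercise against control gave no edgeR call at either day. At day 10, 2 of 22 had an unadjusted p under 0.05, Thrb (-0.59, edgeR adjusted p 0.238) and Gabpb1, the partner subunit of Gabpa (0.39, edgeR adjusted p 0.279). At day 5, 2 had, Yy1 (-0.23, edgeR adjusted p 0.464) and Hcfc1 (0.23, edgeR adjusted p 0.485). DESeq2 called none of this list at either day.

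Genes for mitochondrial DNA replication, transcription and RNA handling showed 1 call in all: Twnk, the mitochondrial DNA helicase, was higher at day 10 than at day 5 in exercised lesions, at 23.4 ± 3.57 CPM at day 10 and 15.03 ± 3.69 CPM at day 5 (SD, n = 4 each; log2 0.64, edgeR adjusted p 0.0237). It was the 1 of 24 tested, where 10.1% of all genes were called, and 0 were called without exercise replicate 18 at day 10 or exercise replicate 12 at day 5. In control lesions edgeR called 0 of 24, 4 had an unadjusted p under 0.05 and DESeq2 called 2; Primpol (-0.46, edgeR adjusted p 0.0529) and Mterf4 (0.79, edgeR adjusted p 0.0782) came nearest. Leaving out exercise replicate 17 or 18 or control replicate 5 at day 10 gave 1 call there. Between exercise and control edgeR and DESeq2 called 0 at both days. At day 10, 4 had an unadjusted p under 0.05, led by Mterf4 (-0.95, edgeR adjusted p 0.184) and Primpol (0.35, edgeR adjusted p 0.343). At day 5, 2 had, Mgme1 (-0.48, edgeR adjusted p 0.415) and Slirp (-0.26, edgeR adjusted p 0.447).

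Of the 19 genes for protein import and mitochondrial dynamics, 1 was called lower at day 10 than at day 5 in exercised lesions, the chaperonin Hspd1 (-0.43). In control lesions 2 were, Hspd1 (-0.42) and Timm23 (-0.64), the channel of the inner membrane. None was higher. Of all genes 4.9% were called lower in exercise and 6.64% in control. The exercise count was 0 without exercise replicate 18 or 19 at day 10 or exercise replicate 7 at day 5, and 2 without exercise replicate 17 at day 10. The control count was 1 without control replicate 3 and 5 without exercise replicate 17, both at day 10. Exercise against control gave 0 calls by edgeR and by DESeq2 at both days; 1 gene at day 10 and 4 at day 5 had an unadjusted p under 0.05. The nearest were Fis1 (-0.27, edgeR adjusted p 0.385) and Tomm20 (0.20, edgeR adjusted p 0.418) at day 10, and Mief1 (-0.39, edgeR adjusted p 0.311) and Tomm40 (-0.72, edgeR adjusted p 0.363) at day 5.

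Of the 10 mitophagy genes, which mark damaged mitochondria for removal, 2 were called higher at day 10 than at day 5 in control lesions and 0 lower, where 5.66% of all genes were called higher and 6.64% lower. Pink1, the kinase that starts the process, averaged 64.6 ± 4.71 CPM in control at day 10 and 39.3 ± 5.97 CPM in control at day 5 (SD, n = 4 each; log2 0.72, edgeR adjusted p 0.00339). Ulk1, a kinase of autophagy, averaged 16.4 ± 2.05 and 10.2 ± 0.718 CPM in the same groups (log2 0.68, edgeR adjusted p 0.00617). In exercised lesions edgeR and DESeq2 called 0, 4 had an unadjusted p under 0.05, and 1 was called without exercise replicate 12 at day 5; Pink1 was at 0.39 (edgeR adjusted p 0.0935). Between exercise and control edgeR and DESeq2 called 0 at both days, with 1 unadjusted p under 0.05 at day 10 and 2 at day 5. The nearest were Bnip3 (0.53, edgeR adjusted p 0.357) and Pink1 (-0.25, edgeR adjusted p 0.478) at day 10, and Ulk1 (0.56, edgeR adjusted p 0.277) and Fundc1 (-0.27, edgeR adjusted p 0.398) at day 5.

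Of the 27 tested genes for fatty acid oxidation, the citrate cycle, antioxidant defence and other targets, 2 were called lower at day 10 than at day 5 in exercised lesions, the acyl-CoA dehydrogenase Acadl (-0.73) and Cpt1a (-0.56), which carries fatty acids into mitochondria. In control lesions 2 were called lower, Cpt1a (-0.43) and the glutathione peroxidase Gpx1 (-0.70), and 1 higher, Slc2a4, the insulin-responsive glucose transporter (1.29). Of all genes 4.9% were called lower in exercise, and 6.64% lower and 5.66% higher in control. Slc2a4 averaged 11.7 ± 2.56 CPM in control at day 10 and 4.84 ± 3.24 CPM in control at day 5 (SD, n = 4 each; edgeR adjusted p 0.0297). The exercise count of 2 was 5 without exercise replicate 13 at day 10 or exercise replicate 1 at day 5. The control count of 3 was 1 without control replicate 2 at day 10 or control replicate 1 or 2 at day 5. With exercise against control, edgeR called 0 at both days. At day 10, 3 had an unadjusted p under 0.05 and DESeq2 called 1; Vegfa (0.74, edgeR adjusted p 0.139) and Hadhb (-0.23, edgeR adjusted p 0.329) were nearest. At day 5, 1 had, Mdh2 (-0.28, edgeR adjusted p 0.407), followed by Acadl (0.24, edgeR adjusted p 0.531), and DESeq2 called 0. In the interaction neither tool called a gene of these 8 lists; by list, in the order of their description here, 3, 1, 3, 2, 3, 1, 1 and 2 genes had an unadjusted p under 0.05.

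**Figure D4:**
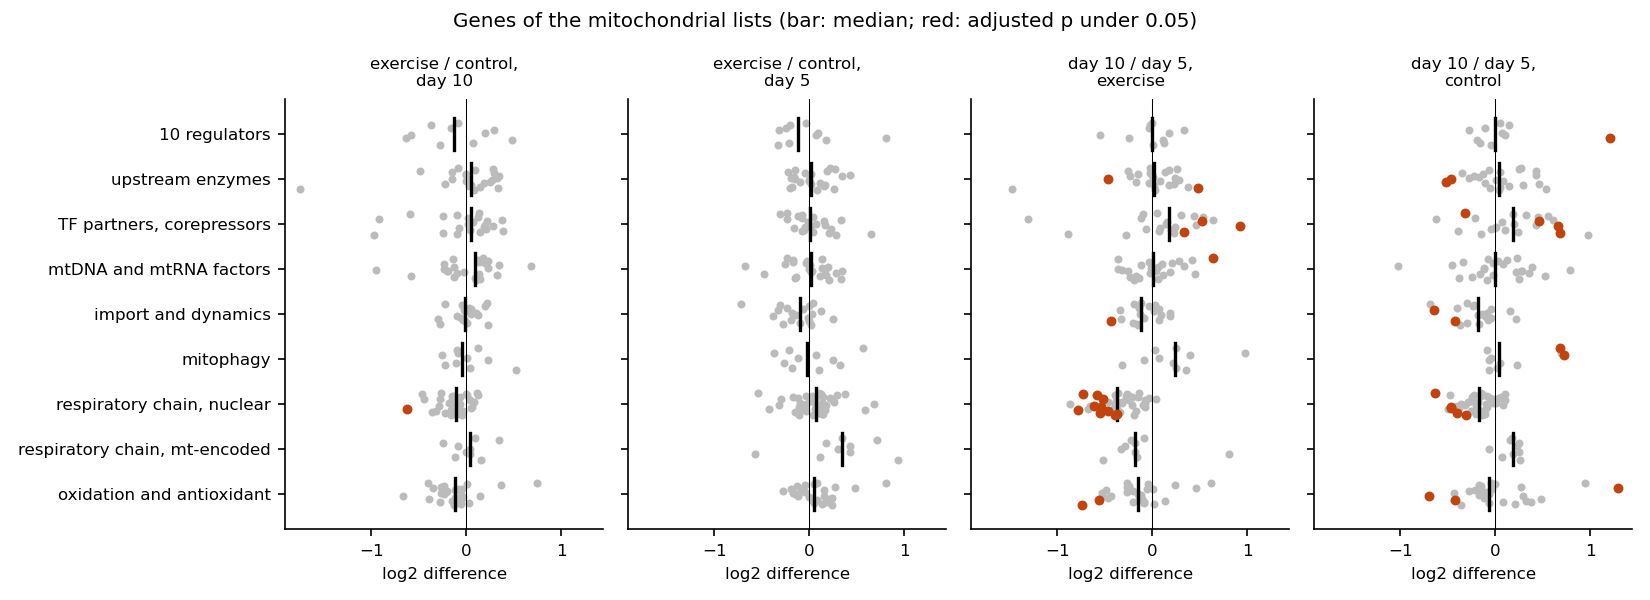
Log2 differences of the 10 regulators and of the genes of 8 mitochondrial lists in 4 comparisons, numerator first. Each point is a gene, red where the edgeR adjusted p is under 0.05, and bars are medians; for day 10 against day 5 in exercise, the nuclear respiratory chain has a median of -0.37.

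Markers of cell types moved in the same comparisons as Ppargc1a. For day 10 against day 5 in control, edgeR called 6 of 14 markers of oligodendrocytes and myelin higher. Also higher were 5 of 9 of astrocytes and 4 of 8 of microglia, while 4 of 19 of neurons and 5 of 8 of macrophages were lower. Between days 5.66% of all genes were called higher and 6.64% lower in control, and 5.17% higher and 4.9% lower in exercise. The summed level of the 14 myelin markers was 25086 to 28147 CPM in control at day 10 and 11711 to 15820 CPM in control at day 5, with no overlap, as for Ppargc1a. This was also so for 20% of all genes. Summed astrocyte markers (6979 to 8387 CPM at day 10, 3559 to 6465 at day 5) and oligodendrocyte precursor markers (1125 to 1384, 1047 to 1073) were separated too. Summed macrophage markers were lower at day 10 without overlap (3970 to 4797, 10623 to 17798). The sums of neurons, microglia and endothelium overlapped. A sum follows its most abundant markers: the highest count of any 1 marker in a library was 117110 for microglia and 121301 for macrophages. The microglial sum averaged 7242 CPM in control at day 10 and 8526 CPM in control at day 5, though 6 of 8 markers had a positive log2 difference. Leaving out exercise replicate 17 at day 10 gave 10 myelin markers. The astrocyte count was 3 without control replicate 2, 3 or 5 at day 10 or control replicate 1 or 2 at day 5, and the macrophage count was 3 without control replicate 2 or 3 at day 10 or control replicate 1 or 2 at day 5. In exercised lesions 3 of 14 myelin markers were called higher at day 10 than at day 5, and the summed level was 12628 to 28801 CPM at day 10 and 12930 to 18130 CPM at day 5. That count was 8 without exercise replicate 17 and 1 without exercise replicate 18 at day 10, and 1 without exercise replicate 2, 7 or 12 at day 5. Lower in exercise at day 10 than at day 5 were 6 of 19 neuronal markers, with 19 of 19 negative and a median log2 difference of -0.95, 4 of 8 of macrophages, with 8 of 8 negative, and 3 of 8 of endothelium, with 7 of 8 negative. Higher were 2 of 9 of astrocytes and 5 of 8 of microglia. Summed neuronal markers were at 262 to 792 CPM in exercise at day 10 and 757 to 1274 CPM in exercise at day 5. Summed macrophage markers were at 3393 to 11329 CPM in exercise at day 10 and 12377 to 19511 CPM in exercise at day 5. The neuronal count was 12 without exercise replicate 13 at day 10, and 1 astrocyte marker was called without any one of exercise replicates 13, 18 and 19 and control replicates 2 and 5 at day 10 or exercise replicates 1, 2 and 7 and control replicates 2 and 6 at day 5.

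For exercise against control at day 5, where the Ppargc1a mean was 1.75-fold higher without passing, 17 of 19 neuronal markers were positive, with a median log2 difference of 0.62. Their summed level was 757 to 1274 CPM in exercise and 585 to 781 CPM in control. None was called by edgeR or DESeq2, and 6 had an unadjusted p under 0.05, against 10% of all genes. The share of all genes with a positive difference was 51.6% at day 5 and 52.1% at day 10. For exercise against control at day 10, where Ppargc1a was at -0.64 without passing, 13 of 14 myelin markers were negative (median log2 difference -0.27), 8 of 9 of astrocytes (-0.32) and 7 of 8 of endothelium (-0.77), while 8 of 8 of microglia were positive (0.42). Summed myelin was 12628 to 28801 CPM in exercise and 25086 to 28147 CPM in control, and summed microglial markers were 6786 to 13798 CPM in exercise and 6178 to 8341 CPM in control. As above, such sums follow their most abundant markers. Of these markers edgeR called 1, the endothelial transporter Slco1a4 (-0.86, edgeR adjusted p 0.0401), where 0.0861% of all genes were called lower. No endothelial marker was called in 10 of the 16 fits that left out 1 library. At that day, the exercise library with the lowest Ppargc1a, replicate 17, also had the lowest summed myelin (12628 CPM) and neuronal (262 CPM) markers and the highest summed microglial (13798 CPM) and macrophage (11329 CPM) markers of its group. The markers of skeletal muscle, the tissue in which Ppargc1a is best known to respond to exercise, summed to at most 0.887 CPM in any library, with no marker above 7 counts and 1 of 7 at 0 in all of them. The part of cell composition in the Ppargc1a differences was not tested.

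**Figure D5:**
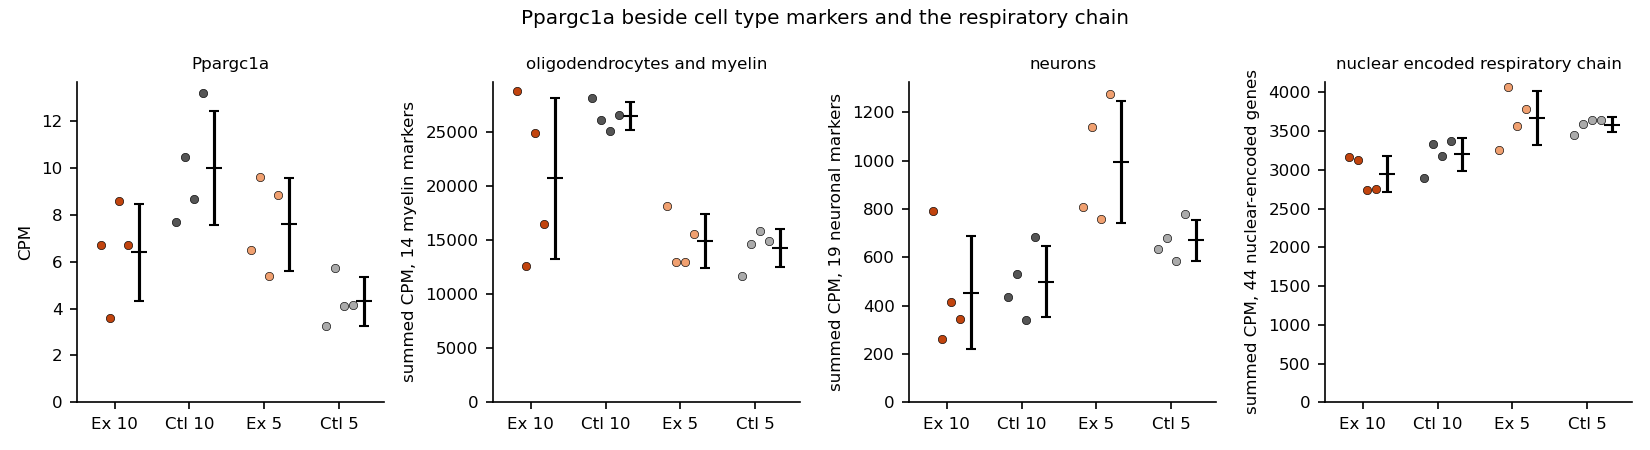
Ppargc1a in TMM-scaled CPM beside the summed CPM of 14 myelin markers, 19 neuronal markers and 44 nuclear-encoded respiratory chain genes, by group (Ex, exercise; Ctl, control; 10 and 5, the day). Points are libraries, and the bars show mean and SD of 4 libraries. In control, Ppargc1a, the myelin markers and the respiratory chain genes are each separated by day. The myelin markers are at 25086 to 28147 CPM at day 10 and 11711 to 15820 CPM at day 5. The respiratory chain genes are lower at day 10, at 2902 to 3378 CPM against 3447 to 3651 CPM.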

How the data were processed

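RNA from laser-dissected lesions was amplified, selected for poly(A) and sequenced as strand-specific single-end reads of 75 nt, per the labels' protocols. The submitters' processing notes name FastQC 0.11.4, TopHat2 2.0.10, Bowtie 1.1.2, featureCounts 1.5.0-p1, DESeq2 1.12.4 and GRCm38. The authors deposited raw counts per Ensembl gene, counted by strand per the file headers. Exon lengths are those the authors deposited in the same table. The authors also deposited 1 table a day of log2 differences and their errors, with a p-value and an adjusted p-value per gene; its test is not named in the file headers. Normalized and variance-stabilised tables were not used.

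Symbols and coordinates came from GENCODE mouse release 21, which named 45143 of 46078 genes. The test was edgeR 4.0.16 (R 4.3.3): filterByExpr (minimum count 10, minimum total 15) kept 15096 genes, libraries were scaled by TMM, and a robust quasi-likelihood model with 4 group means over 16 libraries gave 12 residual degrees of freedom and a common biological coefficient of variation of 0.236. Adjusted p-values are Benjamini-Hochberg over all genes tested, with a threshold of 0.05. Centred log2 CPM used a prior count of 2. The script was tested on simulated data. Totals were 8.13 to 13.9 M counts (M, mega), and no molecular identifiers are named, so counting errors are lower bounds. Correlations of log2 CPM between libraries reached at most 0.975. The members, the gene lists and the comparisons were chosen with earlier results of these data known. All 10 members are named. Of each pathway list, genes past the threshold are named, at most 5 by p, and where none passed the 2 smallest p-values; 1 gene named by this rule is not reported here. Alternatives were other size factors, no filter, no mitochondrially encoded genes, a fit of the 2 groups compared, DESeq2 1.42.0, a replicate block and leaving out each library. The listed gene Mrpp3 matched no symbol.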

Additional observations from a re-analysis of the deposited data

Results flagged for a closer look

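Esrra in exercise at day 10 had 1 library apart from the others: replicate 19 stood at 20.2 CPM, against 25.8 to 26.8 CPM in the other 3, a gap of 0.844 of the group's whole range. Of 40 groups of member values checked in this way 1 stood out, and chance gives about 1 in 20. Leaving that library out changed no call of Esrra.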

How the results depend on the processing

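Of 1060 values of the 10 genes under the alternatives, 1012 kept their direction and their side of the threshold, 47 changed sign and 1 lost its call. The lost call was Ppargc1a for day 10 against day 5 in control under a replicate block, at 1.05 with an edgeR adjusted p of 0.206, so that 0 members were called there. Numbers are shared by only 2 pairs of libraries in that comparison and by 2 at day 5. Libraries without a shared number add nothing to a difference fitted with the block, so it rests on those pairs alone. The deviations of same-numbered libraries correlated at 0.06, 0.02, 0.07 and -0.03. So few pairs can neither show nor exclude that the numbers mark a pairing. Under the block 561 genes were called between days in control, against 1858 without it, on 14467 genes. No paired analysis was possible for the other comparisons because their groups share no numbers. Leaving out each library in turn left 1 member called between days in control and 0 in the 4 other comparisons. Of the 8 mitochondrial lists between days in control, the block left 1 call, among the partners and corepressors.

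The count of all genes called depended on the setting more than the members did. For exercise against control at day 10 it was 29, 0 in a fit of the 2 groups alone and 218 by DESeq2. It was 0 to 133 when libraries were left out: 0 without exercise replicate 17 or 19 or control replicate 2 or 3 at day 10 or control replicate 2 at day 5, 1 without exercise replicate 13 at day 10, 2 without control replicate 5 at day 10 or exercise replicate 12 at day 5, 12 to 19 without control replicate 4 at day 10 or exercise replicate 1 or 7 or control replicate 1 or 5 at day 5, and 133 without exercise replicate 18 at day 10. At day 5 it was 0, 75 by DESeq2 and 0 to 1 with libraries left out. Between days it was 1301 to 2249 in control with libraries left out. In exercise it was 1520, 856 in the fit of 2 groups and 975 to 1839 with libraries left out, the lowest without exercise replicate 7 at day 5. The interaction gave 0, 9 by DESeq2 and 0 to 1 with libraries left out. In the fit of the 2 exercise groups, the lists for genes upstream of PGC1a, mitochondrial DNA and import had 0 calls between days. The causes were not tested.

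The values that changed sign were near 0, with no adjusted p under 0.70. Tfb2m between days in exercise was 0.00 with other size factors (0.00216), in the fit of 2 groups (0.000557) and by DESeq2 (0.0071). Under the block, Tfb2m at day 5 was 0.0218, and in control between days Ppargc1b was -0.19, Pprc1 -0.00833 and Tfb1m -0.0251. With libraries left out, the ranges that crossed 0 were for exercise against control at day 10 Gabpa (-0.0400 to 0.11), for exercise against control at day 5 Tfb2m (-0.22 to 0.0959), Ppargc1b (-0.18 to 0.34), for the days in control Esrra (-0.21 to 0.0935), Tfb2m (-0.0333 to 0.17), Ppargc1b (-0.0761 to 0.37), for the days in exercise Esrra (-0.058 to 0.11), Tfb2m (-0.14 to 0.18), Tfam (-0.14 to 0.0354), Tfb1m (-0.0766 to 0.0328), Nrf1 (-0.0128 to 0.23), for the interaction Tfam (-0.0284 to 0.17), Esrra (-0.0901 to 0.21), Tfb2m (-0.19 to 0.12). Counts of 37 to 161 for Ppargc1a and 25 to 125 for Ppargc1b limit their precision, though the spread within groups was mostly larger than counting error.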
